A study of Mus musculus with 16 samples.

Results

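Tardbp, Matr3, Atxn2, Vcp, Sqstm1, Optn and Vapb are mouse counterparts of human genes in which mutations or repeat expansions have been linked to amyotrophic lateral sclerosis (ALS), apart from SOD1 itself. Their members on the array were all probes that are not controls and whose gene name in the array files is one of these 7 symbols. This gave 16 of the 41174 probes, 4 for Atxn2, 3 each for Tardbp and Vapb, 2 each for Matr3 and Vcp, and 1 each for Sqstm1 and Optn. Each probe had 1 spot per array, was measured on all 16 arrays and was saturated on 0 of them.

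Lumbar spinal cord of SOD1G93A mice and of non-transgenic wild-type mice was collected at 40 and at 80 days of age, with 4 arrays for each genotype at each age. All mice had the B6SJL background, and the methods state that all were male and that the SOD1G93A colony carries many copies of a mutant human SOD1 transgene. Each array carried the Cy3-labeled cord sample and a Cy5-labeled reference pool of neonatal heart, kidney and liver of both genotypes, with no array of exchanged dyes. The methods give 5 animals per group, of which 4 per group were kept after a quality check. The labels call the samples biological replicates without saying which animal each came from, so the p-values measure the spread between these samples. The array is designed for mouse transcripts, and the human transgene was not analysed here. Whole cord was measured, so fewer cells of a type and less RNA per cell cannot be told apart.

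The 7 genes fall into 3 groups by what their proteins do. TDP-43 (Tardbp), matrin 3 (Matr3) and ataxin-2 (Atxn2) bind RNA, and TDP-43 is the main component of the protein inclusions found in motor neurons of most ALS patients, although SOD1-linked disease is usually an exception. The ATPase VCP pulls ubiquitinated proteins out of membranes and complexes for degradation, while p62 (Sqstm1) and optineurin (Optn) are receptors that tie ubiquitinated cargo to the autophagosome. VAPB (Vapb) sits in the membrane of the endoplasmic reticulum, where it tethers other organelles and lipid transfer proteins.

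The following probe sequences, taken from the array files and written in lower case with no letters singled out, are those of probes on which the results below turn, shown so that probes of 1 gene that gave different values can be told apart. The whole probe is given for the first Vapb probe, Atxn2 A_52_P262275 and Optn, whose values the results below rest on most, and only the first 30 bases for the others, which serve for comparison.
Vapb A_51_P323443: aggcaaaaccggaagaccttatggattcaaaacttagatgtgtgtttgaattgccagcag
Vapb A_52_P556140: ctgctggtgatgaagagtcctgactgtgaa
Vapb A_51_P458873: cacgttggttgtttgatgtgtgataaatcc
Atxn2 A_52_P262275: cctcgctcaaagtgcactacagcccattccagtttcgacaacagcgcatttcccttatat
Atxn2 A_51_P254954: aactggaagttatttattttttaatggccc
Tardbp A_51_P415647: taatttgaatcccaccctatgaattttttc
Optn A_51_P245485: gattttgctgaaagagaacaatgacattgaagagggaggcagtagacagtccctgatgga

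Positions are those of the array files on the NCBI35 (mm7) mouse build, and the files do not say whether a position is coding or untranslated. The 3 Vapb probes lie on the plus strand of chromosome 2, in the order A_51_P323443 (chr2:173518795-173518854), A_52_P556140 (chr2:173523633-173523692) and A_51_P458873 (chr2:173528507-173528566), and are called the first, the second and the third Vapb probe below. Tardbp lies on the minus strand of chromosome 4, where A_51_P415647 (chr4:147607343-147607402) falls inside the 1088 bases that A_52_P299292 spans (chr4:147607156-147608243). A probe of 60 bases that spans 1088 bases joins separate stretches of the genome, and the file assigns it to another Tardbp transcript than the other probes. The third Tardbp probe, A_52_P572255 (chr4:147605528-147605587), lies further downstream. Atxn2 A_52_P262275 (chr5:121047742-121047801) and A_51_P254954 (chr5:121048886-121048945) are on the plus strand of chromosome 5, and the Optn probe spans 3024 bases on the minus strand of chromosome 2 (chr2:4941405-4944428).

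All values below are log2 ratios of the Cy3 signal of the cord to the Cy5 signal of the reference, so a value above 0 means more signal from the cord than from the neonatal organs. Values after ± are SDs over the 4 arrays of a group. A difference was called where the unadjusted two-sided p of limma was under 0.05, the threshold in the study's methods, and a p-value without further name is this one. Ratios of different probes are not compared in level, since each probe binds with its own strength.

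The brightest probes of Tardbp and Matr3 were below 0 and that of Atxn2 above 0 on every array, and the order of the 4 groups differed from gene to gene. For Tardbp and Matr3 the sign depended on the probe. Tardbp A_52_P299292 was also below 0, while A_52_P572255 had group means of 0.77 to 0.96, and the other Matr3 probe had 0.024 to 0.19. Sqstm1 was 0.72 ± 0.10 in wild-type and 0.80 ± 0.089 in SOD1G93A cord at 40 days, and 0.93 ± 0.28 and 1.07 ± 0.30 at 80 days. The brightest probe of Vapb ran the other way, from 1.34 ± 0.11 and 1.31 ± 0.095 at 40 days to 1.14 ± 0.26 and 1.01 ± 0.15 at 80 days. The brightest probe of Tardbp was -0.64 ± 0.15 and -0.59 ± 0.11 at 40 days, against -0.72 ± 0.094 and -0.70 ± 0.054 at 80 days. For each of the 16 probes, the groups that stood next to each other in the order of their means had overlapping arrays.

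**Figure D1:**
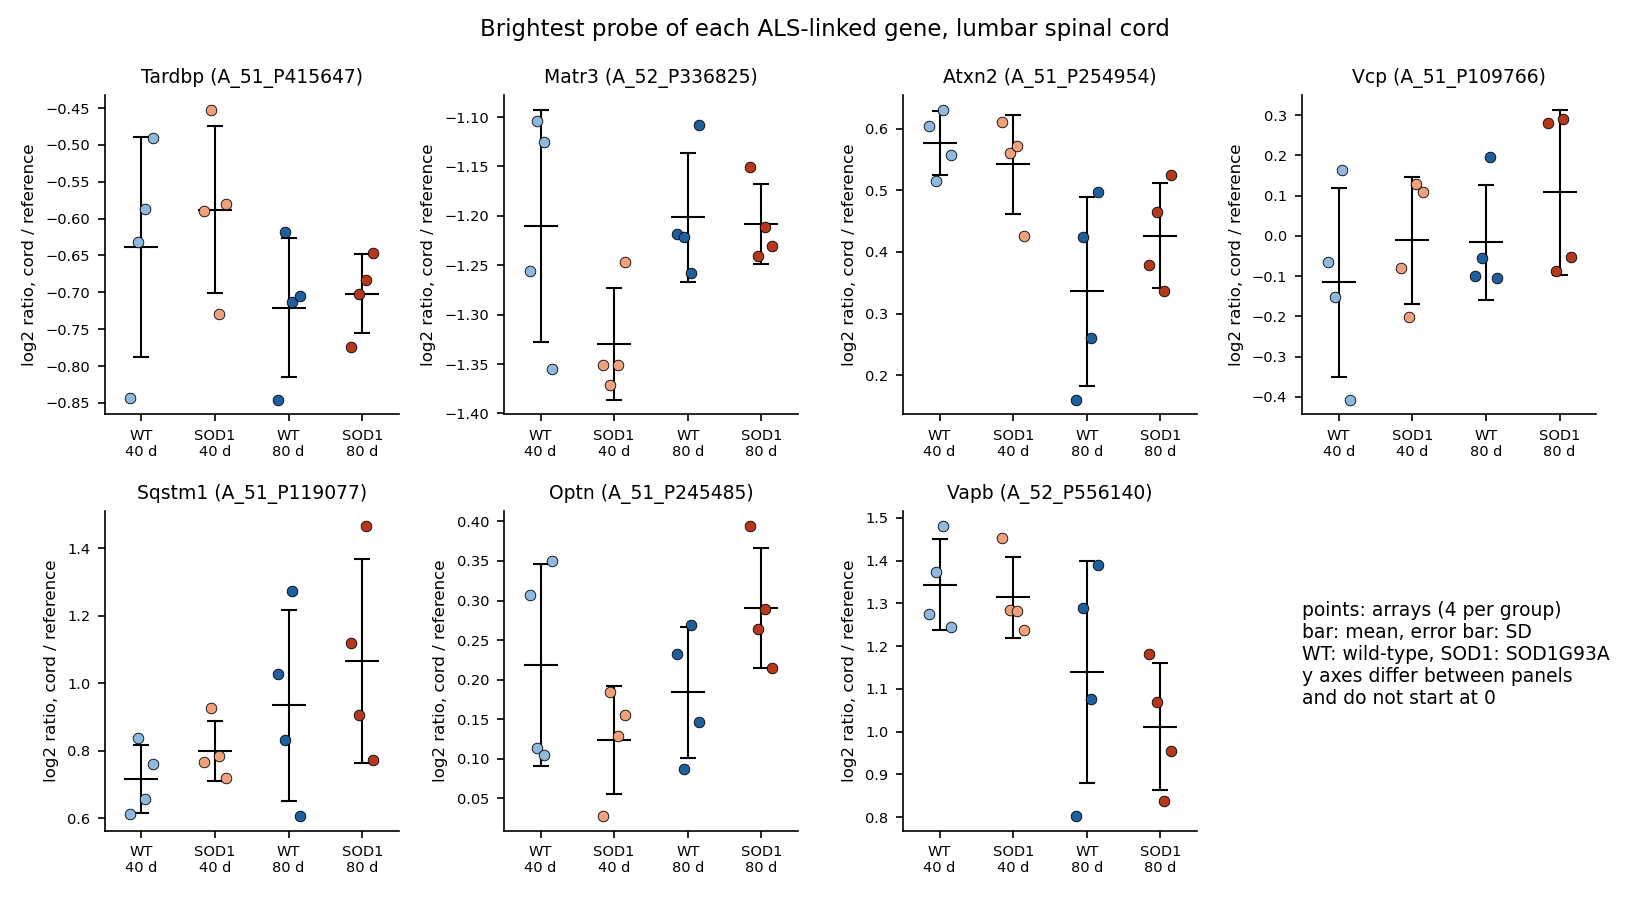
Log2 ratio of cord to reference (y axis, a separate range for each panel) for the brightest probe of each gene in the 4 groups (x axis), with 1 point per array and the mean and SD. Sqstm1 lies highest in SOD1G93A cord of 80 days (1.07 ± 0.30), Vapb lowest (1.01 ± 0.15), and neighbouring groups overlap in every panel.

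The first comparison asks which of these genes differ between SOD1G93A and wild-type cord before symptoms. At 40 days, 1 of the 15 probes tested was called, the first Vapb probe, which was higher, and 0 were lower, while over all 21338 probes 2.44% were called higher and 2.03% lower. In 0 of the 15 did the 4 SOD1G93A arrays lie apart from the 4 wild-type arrays, against 2.86% of all probes. At 80 days, 2 of 14 were called, Atxn2 A_52_P262275 higher and the first Vapb probe lower, against 3.74% and 3.12% of 21603 probes. The groups lay apart for 1 of the 14, against 4.34% of all probes. With the brightest probe of each gene, 0 of 7 genes were called at either age. Over the whole array, 0 probes passed a Benjamini-Hochberg adjusted p of 0.05 from limma in these comparisons, the smallest being 0.998 at 40 days and 0.0729 at 80 days, while 953 and 1481 were called at the unadjusted threshold.

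Median differences of the member probes were close to those of all probes at 40 days and larger than them at 80 days. At 40 days the median was 0.011 over the 15 members and 0.0029 over all probes, and the median size, without sign, was 0.058 and 0.051. At 80 days the median was 0.042 against -0.0012, and the median size 0.099 against 0.067. Of the 14 probes at 80 days, 9 were higher and 5 lower in SOD1G93A cord. The shares called over all probes depended on the background correction, since without the reset of bright local backgrounds 1.15% were called at 40 days and 5.63% at 80 days in either direction, against 4.47% and 6.86% with it.

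**Figure D2:**
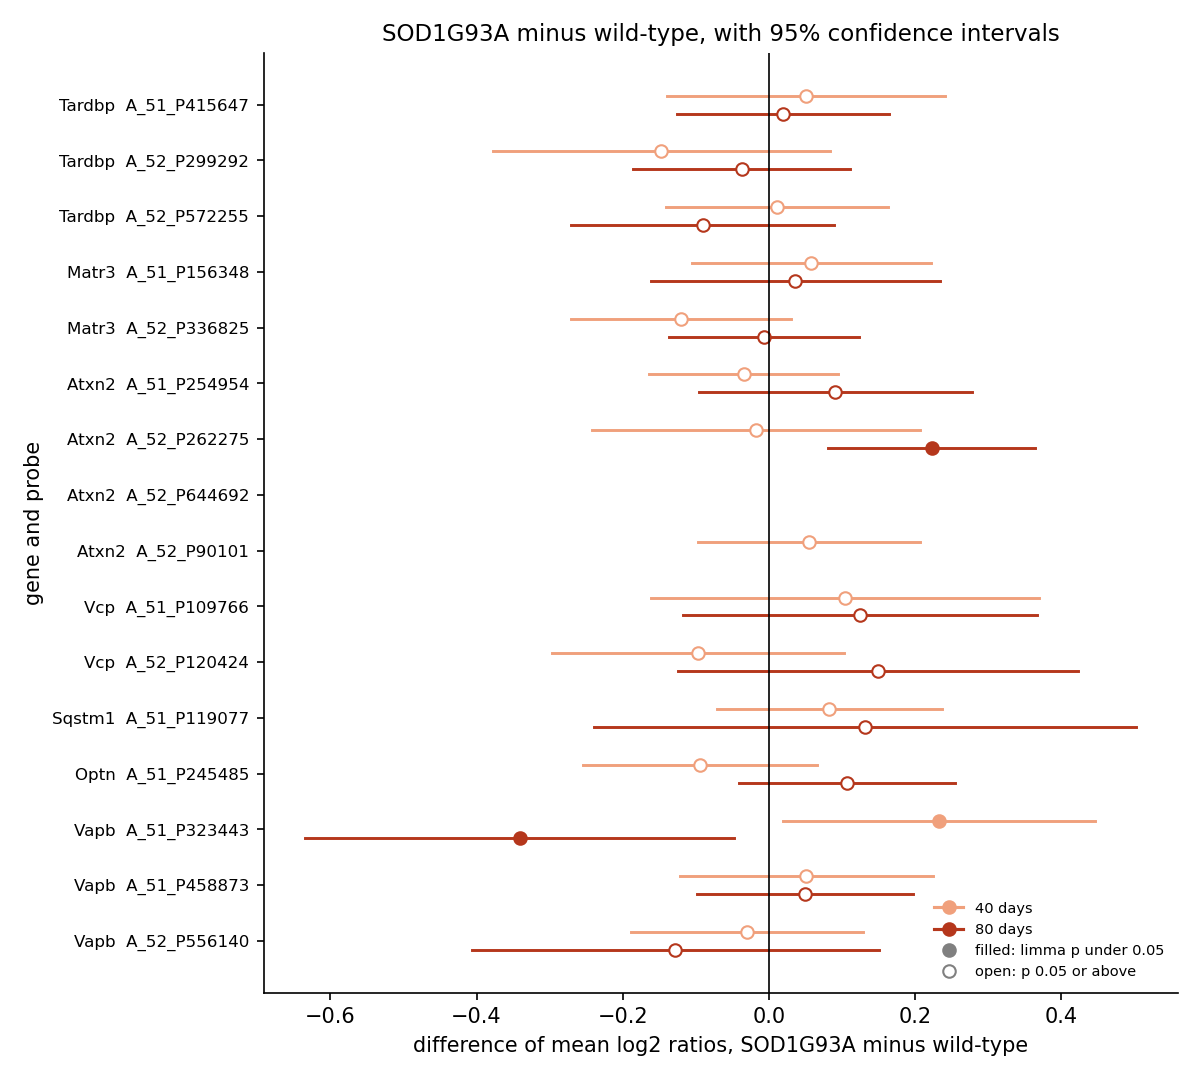
Difference of the mean log2 ratios, SOD1G93A minus wild-type (x axis), with its 95% confidence interval from limma, for each probe (y axis) at 40 days (light) and 80 days (dark), filled where p was under 0.05. The first Vapb probe (A_51_P323443) lies at 0.23 at 40 days and -0.34 at 80 days, and Atxn2 A_52_P262275 at 0.22 at 80 days, while the intervals of the others include 0. Probes without a point were not tested.

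Among the RNA-binding members, Atxn2 A_52_P262275 was higher in SOD1G93A cord at 80 days. Ataxin-2 is part of stress granules and interacts with TDP-43. The 4 SOD1G93A arrays had 0.47, 0.52, 0.63 and 0.45, and the 4 wild-type arrays 0.29, 0.29, 0.23 and 0.38. Every SOD1G93A array lay above every wild-type array. The difference was 0.22 (SE 0.064, p = 0.006, adjusted p = 0.654), or 1.17-fold, with an exact permutation p of 0.0286, the smallest that 4 arrays against 4 can give. The SOD1G93A array was therefore also the higher one within each slide, by 0.071 to 0.40, which adds nothing to the separation of the groups.

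At 40 days the same probe differed by -0.018 (95% interval -0.24 to 0.21), with 0.53, 0.15, 0.48 and 0.60 in wild-type and 0.42, 0.26, 0.50 and 0.52 in SOD1G93A arrays. These overlap throughout. Without normalization within arrays, however, the difference at 40 days was -0.30 and was called lower, the 1 call among 19 alternatives. The change of the difference with age was 0.24 (SE 0.12, p = 0.066, exact permutation p = 0.102), positive on 4 of 4 slides, and was called in 4 of 25 alternatives, the replicate block among them. The signal of this probe was low, 60.5 to 103.5 units before background correction, against 474 to 754 units for the brighter Atxn2 probe. Without normalization within arrays the difference at 80 days was 0.14 and no longer called, and in the Cy3 channel alone the change with age was -0.022.

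The brighter Atxn2 probe, A_51_P254954, differed by -0.035 (95% interval -0.16 to 0.095) at 40 days and 0.091 (95% interval -0.096 to 0.28) at 80 days. It was not called, and on the same array the difference between the 2 Atxn2 probes did not depend on genotype at 80 days beyond the spread (-0.13, exact permutation p = 0.257). Of the other Atxn2 probes, A_52_P644692 was well above background on 0 arrays and was never tested. A_52_P90101 was above on 8 arrays and differed by 0.055 (95% interval -0.097 to 0.21) at 40 days, the only age at which it could be tested between genotypes. It was tested there only through the SOD1G93A arrays, above background on 3 against 2 of wild-type. The filter thus favours this direction.

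Tardbp did not differ beyond the spread with any of its 3 probes at either age. The probe that spans 1088 bases, A_52_P299292, had -0.78, -0.48, -0.64 and -0.25 in wild-type and -0.78, -0.68, -0.67 and -0.61 in SOD1G93A arrays of 40 days. The wild-type arrays covered a wider range than the SOD1G93A arrays, which lay within it. The difference was -0.15 (95% interval -0.38 to 0.083, p = 0.185, exact permutation p = 0.286). It was called without wild-type replicate 1 (-0.23) and was not called in the other 18 alternatives. At 80 days it was -0.037 (95% interval -0.19 to 0.11). The probe inside its span, A_51_P415647, differed by 0.051 (95% interval -0.14 to 0.24) and 0.019 (95% interval -0.13 to 0.16), and the downstream probe by 0.011 (95% interval -0.14 to 0.16) and -0.091 (95% interval -0.27 to 0.089), at 40 and 80 days.

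Since TDP-43 is known to regulate the processing of its own transcript, differences between Tardbp probes were also taken on each array. At 40 days, A_51_P415647 minus A_52_P299292 was higher in SOD1G93A than in wild-type arrays by 0.20 (exact permutation p = 0.143), and by 0.056 for the later age (exact permutation p = 0.371). Over its 3 pairs of probes and 5 comparisons, no exact p for Tardbp was under 0.114. Matrin 3 is an RNA-binding protein of the nucleus, and its brighter probe, A_52_P336825 on chromosome 18, differed by -0.12 (95% interval -0.27 to 0.031) at 40 days and -0.0070 (95% interval -0.14 to 0.12) at 80 days. Its value at 40 days was called with array weights (-0.13) and without wild-type replicate 4 (-0.17). The other Matr3 probe differed by 0.058 (95% interval -0.11 to 0.22) and 0.036 (95% interval -0.16 to 0.23).

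The ubiquitin and autophagy members had higher means in SOD1G93A cord at 80 days with all 4 of their probes, but 0 of 4 were called. Sqstm1 had 0.61, 0.84, 0.66 and 0.76 in wild-type and 0.77, 0.93, 0.78 and 0.72 in SOD1G93A arrays of 40 days. At 80 days it had 1.03, 0.83, 1.27 and 0.61 in wild-type and 1.12, 0.91, 1.47 and 0.77 in SOD1G93A arrays. The replicates of 80 days spread widely in both genotypes, and slide 3 was highest in each. The SOD1G93A array was higher than the wild-type array of its slide on 4 of 4 slides, by 0.073 to 0.19, while the difference of 0.13 had a 95% interval of -0.24 to 0.50. This interval does not pair the arrays by slide, so it holds the spread between slides too. The difference was called in 0 of 19 alternatives, the replicate block among them, with limma p from 0.067 to 0.99. At 40 days the difference was 0.083 (95% interval -0.071 to 0.24), higher on 3 of 4 slides.

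Optn had 0.31, 0.11, 0.10 and 0.35 in wild-type and 0.028, 0.18, 0.13 and 0.16 in SOD1G93A arrays of 40 days. At 80 days it had 0.23, 0.087, 0.27 and 0.15 in wild-type and 0.39, 0.26, 0.29 and 0.21 in SOD1G93A arrays. The genotypes overlap at both ages, with opposite order of their means. The differences were -0.095 (95% interval -0.26 to 0.065) at 40 days and 0.11 (95% interval -0.040 to 0.25) at 80 days, the latter positive on 4 of 4 slides and called with array weights (0.14). The change of the difference with age was 0.20 (SE 0.096, p = 0.051, exact permutation p = 0.042), just outside the threshold of limma. It was called in 10 of 25 alternatives, and kept its sign in all of them.

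Vcp, the ATPase, was not called between the genotypes with either probe. The study itself lists Vcp among its up regulated genes at 80 days, at the same unadjusted threshold. A_51_P109766 (chr4:42993954-42994013), the brighter, differed by 0.10 (95% interval -0.16 to 0.37) at 40 days and 0.12 (95% interval -0.12 to 0.37) at 80 days. A_52_P120424 (chr4:42996707-42996766) differed by -0.097 (95% interval -0.30 to 0.10) and 0.15 (95% interval -0.13 to 0.42). The 2 Vcp probes thus disagreed in sign at 40 days, within their intervals, and over the 16 arrays they correlated with r = 0.15. In the series matrix of the authors, A_52_P120424 was called higher at 80 days (0.21).

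Vapb had the largest difference between genotypes of the members at both ages, in its first probe. At 40 days this probe had 1.61, 1.54, 1.91 and 1.56 in wild-type and 2.07, 1.87, 1.75 and 1.87 in SOD1G93A arrays. Wild-type replicate 3 lay among the SOD1G93A arrays, and the other wild-type arrays below them. At 80 days it had 1.52, 1.88, 1.5 and 1.90 in wild-type and 1.66, 1.32, 1.11 and 1.35 in SOD1G93A arrays. Here 3 of the 4 SOD1G93A arrays lay below all wild-type arrays, and replicate 1 did not.

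The first Vapb probe was thus higher in SOD1G93A cord by 0.23 at 40 days (SE 0.096, p = 0.035, adjusted p = 0.998, exact permutation p = 0.114), on 3 of 4 slides. It was lower by 0.34 at 80 days (difference -0.34, SE 0.13, p = 0.027, adjusted p = 0.708, exact permutation p = 0.086), on the other slides than slide 1. The call at 40 days was lost in 12 of 19 alternatives, among them the replicate block (0.23), the Cy3 channel alone (0.23), no normalization within arrays (0.14) and each of wild-type replicates 1, 2 and 4 and SOD1G93A replicates 1, 2 and 4 left out, with differences of 0.17 to 0.24 in those 6. The call at 80 days was lost without wild-type replicates 2 (-0.28) or 4 (-0.27) and without SOD1G93A replicates 2 (-0.33) or 3 (-0.26).

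The difference between the genotypes changed with age by -0.57 (SE 0.17, p = 0.005, adjusted p = 0.548, exact permutation p = 0.011) in the first Vapb probe. This was 1 of 15 member probes called in the interaction of genotype and age, in the lower direction, against 3.57% of 21953 probes called lower and 3.11% higher. The change was negative within each of the 4 slides, from -0.90 to -0.23, and was called in all 25 alternatives, with values of -0.67 to -0.38. The interaction uses the same arrays as both genotype comparisons, so it is no separate evidence beside them, and 1 call among 15 is near the share over all probes.

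For Tardbp, Matr3, Vcp and Sqstm1 the genotype difference did not change with age beyond the spread. Optn (0.20, limma p = 0.051, exact permutation p = 0.042) and Atxn2 A_52_P262275 (0.24, limma p = 0.066), given above, stood nearer the threshold. The change was -0.031 (95% interval -0.26 to 0.20) for Tardbp A_51_P415647, 0.11 (95% interval -0.16 to 0.38) for A_52_P299292 and -0.10 (95% interval -0.33 to 0.12) for the downstream probe. For Matr3 it was 0.11 (95% interval -0.067 to 0.29) with A_52_P336825 and -0.022 (95% interval -0.27 to 0.23) with A_51_P156348. For Vcp it was 0.020 (95% interval -0.34 to 0.38) with the brighter probe and 0.25 (95% interval -0.097 to 0.59) with the other, and for Sqstm1 0.048 (95% interval -0.36 to 0.46).

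The other Vapb probes did not differ between the genotypes beyond the spread. The second and brightest had 1.28, 1.37, 1.48 and 1.24 in wild-type and 1.45, 1.29, 1.28 and 1.24 in SOD1G93A arrays of 40 days, and 0.80, 1.29, 1.08 and 1.39 against 1.18, 1.07, 0.84 and 0.95 at 80 days. Its differences were -0.030 (95% interval -0.19 to 0.13) and -0.13 (95% interval -0.41 to 0.15), and their change with age was -0.098 (95% interval -0.42 to 0.23). The third differed by 0.051 (95% interval -0.12 to 0.22) and 0.049 (95% interval -0.099 to 0.20), with a change of -0.0024 (95% interval -0.22 to 0.21). Over the 16 arrays the first and second probes correlated with r = 0.80, while the third correlated with them at -0.21 and -0.071. At 80 days the second probe had the sign of the first on each slide, higher in SOD1G93A cord on slide 1 and lower on the others.

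The disagreement of the Vapb probes was tested on the differences between them within an array, which cancel whatever all 3 share. For the first minus the second probe, the genotype difference changed with age by -0.48 (exact permutation p = 0.0012), negative on 4 of 4 slides. It was 0.26 at 40 days (exact permutation p = 0.0286) and -0.21 at 80 days (exact permutation p = 0.0571). For the first minus the third probe the change was -0.57 (exact permutation p = 0.027). These were among 45 such tests, 9 pairs of probes of 1 gene in 5 comparisons, of which 5 had an exact p under 0.05, and the smallest p became 0.0551 after Benjamini-Hochberg adjustment. The pairs were added after the values of the probes had been seen.

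**Figure D3:**
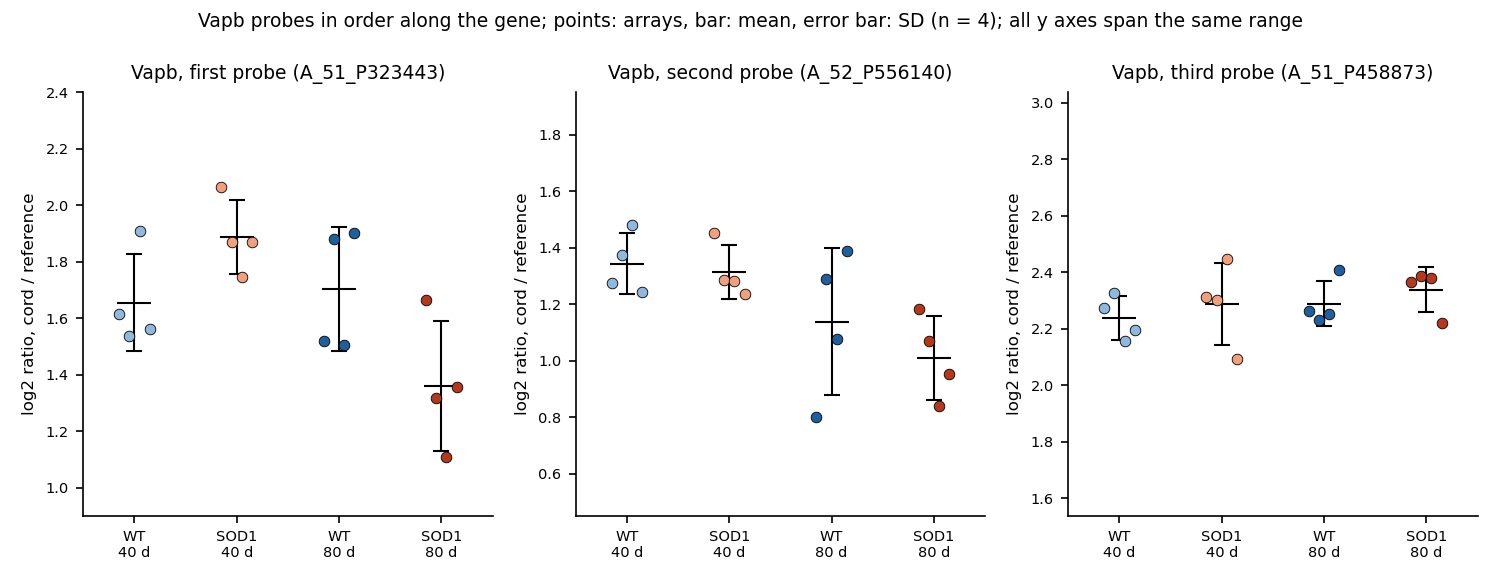
Log2 ratio of cord to reference (y axis, the same span in each panel) for the first, the second and the third Vapb probe in the 4 groups (x axis), with 1 point per array and the mean and SD. In the first probe SOD1G93A cord goes from 1.89 ± 0.13 at 40 days to 1.36 ± 0.23 at 80 days while wild-type goes from 1.65 ± 0.17 to 1.70 ± 0.22, and the third probe stays between 2.24 ± 0.077 and 2.34 ± 0.080 in all groups.

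The median difference of the astrocyte markers had the sign of the first Vapb probe at 40 days (0.19), at 80 days (-0.083) and in the interaction (-0.30). The neuron markers had the same signs (0.093, -0.053 and -0.15), so the match is not particular to astrocyte markers. This holds for groups only, since the lists and the probe were not compared over single arrays. The part of these markers in the values of the probe was not tested. At 40 days, 4 of 9 astrocyte markers were called higher in SOD1G93A cord (Gfap by 0.24, S100b by 0.25, Slc1a3 and Slc1a2 by 0.19 each), and the median deviation of the list ran from -0.11 to -0.032 in wild-type and from 0.024 to 0.18 in SOD1G93A arrays. Of 9 oligodendrocyte markers, 3 were called higher at 40 days, with ranges of 0.021 to 0.22 and 0.14 to 0.39. Over all probes 2.44% were called higher at that age. At 80 days 1 of 9 astrocyte markers was called lower and 2 of 9 oligodendrocyte markers higher, against 3.12% and 3.74% of all probes. In the interaction 4 of 9 astrocyte markers were called, all lower, against 3.57% of all probes. The glutamate transporters Slc1a2 and Slc1a3 and the filament gene Gfap were among those 4, with changes of -0.45, -0.40 and -0.41.

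The second question of the design is how these genes change from 40 to 80 days within each genotype. In wild-type cord, 2 of 14 member probes were called, 1 higher and 1 lower, while 5.44% of 21526 probes were called higher and 6.5% lower. In SOD1G93A cord, 5 of 15 were called, 3 higher and 2 lower, while 10.8% of 21507 probes were called higher and 9.26% lower. The ages lay apart for 1 of 14 member probes in wild-type and 4 of 15 in SOD1G93A cord, against 7.82% and 12.6% of all probes. Over all probes, 79 in wild-type and 403 in SOD1G93A cord passed an adjusted p of 0.05, and 1 of the latter was a member, the first Vapb probe. Arrays of each group enter both a genotype and an age comparison, so these are not independent of each other.

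In SOD1G93A cord the first Vapb probe fell by 0.53 between 40 and 80 days (difference -0.53, SE 0.11, adjusted p = 0.0488 from limma), a ratio of 0.694. All 4 arrays of 80 days lay below all 4 of 40 days, so the value necessarily fell within each slide too, by 0.64 to 0.40. The adjusted p ran from 0.0185 to 0.304 over 18 alternatives, and was above 0.05 in 11 of them. These were the Cy3 channel alone, no reset of bright backgrounds, no normalization within arrays, no filter on dim probes, and the fits in which any of SOD1G93A 40 days replicates 1 to 4 or 80 days replicates 2, 3 or 4 was left out, with differences of -0.57 to -0.44 in those 7. The unadjusted call held in all 18. The second Vapb probe fell by 0.30 (SE 0.081, adjusted p = 0.0854 from limma), again without overlap. The third did not differ beyond the spread, at 0.048 (95% interval -0.12 to 0.22) here and 0.051 (95% interval -0.099 to 0.20) in wild-type cord.

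In wild-type cord the second Vapb probe had a difference of -0.20 (95% interval -0.47 to 0.061), and the first of 0.047 (95% interval -0.22 to 0.31). The difference of the age effects between the genotypes is the interaction given above, -0.57 for the first and -0.098 for the second probe, and of these the first alone was called, at the unadjusted threshold. Oligodendrocyte markers were called lower over the same interval. They were 5 of 9 in SOD1G93A cord (median of the list -0.39), against 9.26% of all probes. In wild-type cord they were 4 of 9 (median -0.19), against 6.5%. The median deviation of that list ran from 0.14 to 0.39 in SOD1G93A arrays of 40 days and from -0.27 to -0.053 in those of 80 days, and its part in the fall of Vapb was not tested.

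Optn rose in SOD1G93A cord by 0.17 (SE 0.059, adjusted p = 0.159 from limma), from 0.12 ± 0.068 to 0.29 ± 0.076, with no overlap of the ages. Its wild-type difference was -0.035 (95% interval -0.21 to 0.14). The call was lost without SOD1G93A 40 days replicate 1 (0.13), without 80 days replicate 1 (0.13) and in the Cy3 channel alone (0.12). Vcp rose by 0.23 with A_52_P120424 (p = 0.026, exact permutation p = 0.057), from 0.58, 0.47, 0.41 and 0.38 to 0.61, 0.66, 0.94 and 0.54. The ages overlap in this Vcp probe, and its call was lost without SOD1G93A 40 days replicates 3 (0.21) or 4 (0.20) and without 80 days replicate 3 (0.14), as well as with the spread of all 16 arrays (0.23). The brighter Vcp probe had 0.12 (95% interval -0.12 to 0.36). In wild-type cord the Vcp probes had 0.099 (95% interval -0.16 to 0.36) for the brighter and -0.020 (95% interval -0.30 to 0.26) for the other. Sqstm1 had 0.27 (95% interval -0.022 to 0.55) in SOD1G93A and 0.22 (95% interval -0.063 to 0.50) in wild-type cord, with neither called.

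Matr3 A_52_P336825 rose in SOD1G93A cord by 0.12 (p = 0.040, exact permutation p = 0.0286), from -1.35, -1.37, -1.35 and -1.25 to -1.15, -1.24, -1.21 and -1.23. The highest array of 40 days lay just below the lowest of 80 days, and the call was lost in 10 of 18 alternatives, the replicate block included. It was kept without an array only for SOD1G93A 40 days replicate 4 and 80 days replicate 4, and ran from 0.10 to 0.15 with any of the 8 arrays left out. Its wild-type difference was 0.0085 (95% interval -0.15 to 0.17). The other Matr3 probe, A_51_P156348, had 0.13 (95% interval -0.057 to 0.32) in wild-type and 0.11 (95% interval -0.070 to 0.28) in SOD1G93A cord.

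In wild-type cord Atxn2 A_51_P254954 fell by 0.24 (SE 0.081, adjusted p = 0.292 from limma), from 0.60, 0.51, 0.63 and 0.56 to 0.16, 0.42, 0.26 and 0.50. Every array of 80 days lay below every array of 40 days, and the call was kept with each of the 8 arrays left out and lost in the Cy3 channel alone (-0.20). In SOD1G93A cord the same probe had -0.12 (95% interval -0.26 to 0.025), and the difference between the genotypes was 0.13 (95% interval -0.090 to 0.34). The other Atxn2 probe, A_52_P262275, had -0.15 (95% interval -0.36 to 0.065) in wild-type and 0.093 (95% interval -0.064 to 0.25) in SOD1G93A cord, and A_52_P90101 had -0.11 (95% interval -0.23 to 0.013) in SOD1G93A cord. A_52_P90101 was tested there only through the arrays of 40 days, above background on 3 against 1 of 80 days, so the filter favours a fall. The downstream Tardbp probe rose in wild-type cord by 0.19 (p = 0.044, exact permutation p = 0.057), on 4 of 4 slides by 0.18 to 0.20. Its call was lost without 6 of the 8 arrays, namely replicates 1, 2 and 4 of 40 days and 1, 2 and 3 of 80 days, with differences of 0.14 to 0.19, and in 3 other settings, with 0.092 without normalization within arrays. The other Tardbp probes had -0.082 (95% interval -0.27 to 0.11) and -0.13 (95% interval -0.37 to 0.12), opposite in sign to the downstream one, and within an array A_51_P415647 minus the downstream probe fell by 0.27 with an exact permutation p of 0.114. In SOD1G93A cord the downstream Tardbp probe had 0.086 (95% interval -0.065 to 0.24), A_51_P415647 -0.11 (95% interval -0.26 to 0.032) and A_52_P299292 -0.017 (95% interval -0.14 to 0.10).

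**Figure D4:**
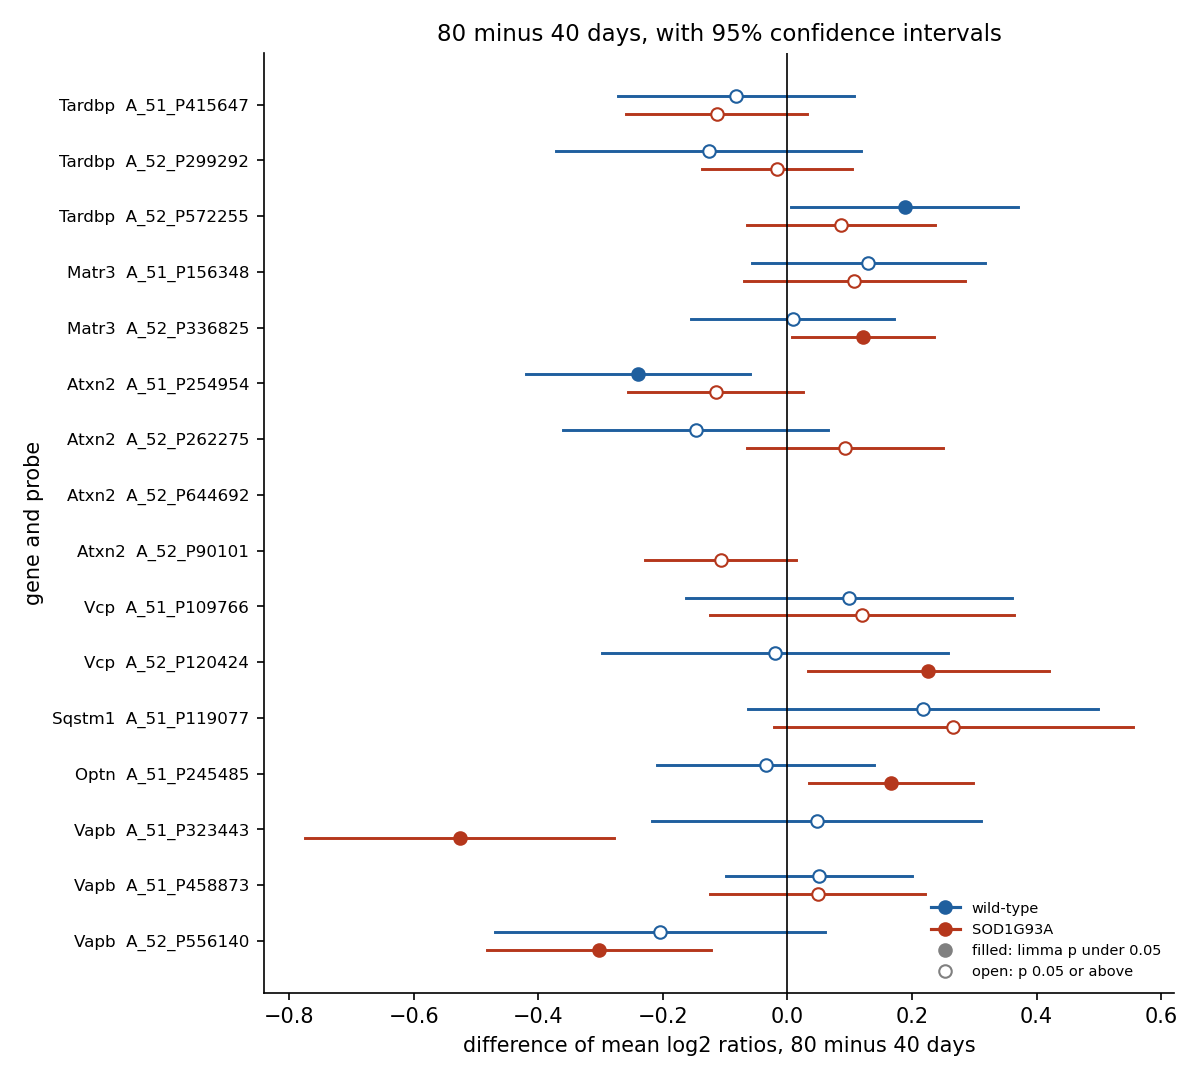
Difference of the mean log2 ratios, 80 minus 40 days (x axis), with its 95% confidence interval from limma, for each probe (y axis) in wild-type (blue) and SOD1G93A cord (red), filled where p was under 0.05. In SOD1G93A cord the first (A_51_P323443) and second (A_52_P556140) Vapb probes lie at -0.53 and -0.30 and Matr3, Vcp and Optn have 1 filled point each, at 0.12, 0.23 and 0.17.

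Genes that work with these members were followed in lists of known partners, with the brightest probe of each gene. Genes whose groups overlap, and those named for the interaction, were named after their values were seen. The counts stand against the shares over all probes, which in the order higher and lower were 2.44% and 2.03% at 40 days, 3.74% and 3.12% at 80 days, 3.11% and 3.57% in the interaction, 5.44% and 6.5% with age in wild-type and 10.8% and 9.26% with age in SOD1G93A cord. Of 35 further genes linked to ALS, 34 were on the array, and 0 of 32 tested were called at 40 days (median -0.0053). At 80 days 3 of 33 were called, all lower (median 0.018). Progranulin (Grn), a lysosomal and secreted protein, was lower (-0.60), as was the glycosyltransferase gene Glt8d1 (-0.16), both without overlap of the groups, and the kinase gene Nek1 (-0.20) was lower with overlap. In the interaction 1 of 33 was called, Grn at -0.72. With age, 2 were higher and 3 lower of 33 in wild-type cord, namely Grn (0.53) and Ang (0.15) against Chmp2b (-0.25), Tbk1 (-0.18) and Ubqln1 (-0.19), a shuttle of ubiquitinated proteins. In SOD1G93A cord 4 were higher and 1 lower, among them the dynactin subunit gene Dctn1 (0.36), Gle1 (0.28), which serves mRNA export, and the receptor gene Erbb4 (0.12). The gene called lower was Taf15 (-0.31), which encodes an RNA-binding protein.

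Partners of the RNA-binding members formed the longest list. Of 37 stress granule and RNA-binding genes tested, 5 were called higher and 1 lower at 40 days (median -0.011), 2 higher and 2 lower at 80 days (median -0.018), and 1 higher and 6 lower in the interaction. The RNA helicase gene Ddx6 had 0.43 at 40 days and -0.29 at 80 days, apart from the wild-type arrays both times, and its interaction was -0.71. At 40 days G3bp2 (0.25), Ubap2l (0.25), Stau2 (0.35) and Lsm12 (0.14) were also higher and Caprin1 (-0.18) lower. At 80 days the RNA-binding protein genes Fxr2 (0.23) and Stau1 (0.17) were higher and Tial1 (-0.28) lower. With age, 5 were higher and 2 lower in wild-type cord, among them Caprin1 (-0.27) and Tial1 (0.22). In SOD1G93A cord 3 were higher and 6 lower, among them Ddx6 (-0.47), Fxr2 (0.34), Sfpq (-0.26) and Fmr1 (-0.16).

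Of 14 transcripts known as targets of TDP-43, 1 was called higher at 40 days, the synaptic chaperone gene Dnajc5 (0.12). At 80 days 2 were higher and 1 lower, namely Sort1 (0.19), which encodes the progranulin receptor sortilin, the autophagy gene Atg7 (0.16) and Grn (-0.60), which is also in the list above. In the interaction Sort1 (0.24) was higher and Grn (-0.72), Tnik (-0.19) and Dnajc5 (-0.17) were lower. With age, 3 were higher and 1 lower in wild-type cord, namely Grn (0.53), Park2 (0.48), Dnajc5 (0.17) and Sort1 (-0.18), and 1 was lower in SOD1G93A cord, the kinase gene Tnik (-0.23). The medians of the list were 0.054, -0.015, -0.049, 0.0052 and 0.0051 in these 5 comparisons.

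Of 27 VCP cofactors and genes of endoplasmic reticulum-associated degradation, 1 was called at each age, higher in SOD1G93A cord, the deubiquitinase gene Atxn3 at 40 days (0.15) and the ubiquitin ligase gene Ube4b at 80 days (0.21). The medians were 0.00058 and -0.022, and in the interaction Ube4b (0.26) was higher and Atxn3 (-0.28) lower (median -0.0060). In wild-type cord 2 of 26 were lower with age, Derl2 (-0.23) and Ubxn7 (-0.21). In SOD1G93A cord 5 of 27 were higher and 6 lower, among them Sel1l (-0.35) and Derl2 (-0.34), which belong to the retrotranslocation machinery, and the VCP adaptor genes Ubxn7 (-0.29) and Ubxn1 (0.20).

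Of 29 autophagy receptors and partners, 0 were called at 40 days (median -0.013) and 1 at 80 days (median 0.033), Atg7 (0.16), which was higher, and 0 in the interaction. With age Gabarapl1 (0.27) was higher and Tbk1 (-0.18) and the GTPase gene Rab8b (-0.32) were lower in wild-type cord, and 3 were higher and 2 lower in SOD1G93A cord. The latter included Gabarapl1 (0.44), an ATG8 family member that p62 and optineurin can bind, Rab8b (-0.26), the kinase gene Ulk2 (-0.21) and Htt (0.21). Of 21 genes of the VAP family and its partners, 1 was called higher at each age, Pitpnm2 at 40 days (0.20) and Esyt1 at 80 days (0.27), with medians of -0.0043 and 0.032, and Pitpnm2 (-0.30) was lower in the interaction. With age Osbpl1a (-0.26) and Mospd2 (-0.40), another tether of the endoplasmic reticulum, were lower in wild-type cord, and 4 were higher and 4 lower in SOD1G93A cord. Vapa, the paralog of Vapb, fell there by 0.23, Mospd2 by 0.25 and the sterol-binding protein gene Osbpl1a by 0.14, while Pitpnm1, a phosphatidylinositol transfer protein gene, rose by 0.18. The study lists Vapa among its down regulated genes at 80 days between the genotypes. Here 0 genes of this list were called lower in that comparison, with the brightest probe of each gene.

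The cord origin of the samples was checked against marker lists. Probes for astrocyte, oligodendrocyte and neuron markers were well above background on all arrays. Of the motor neuron markers, Slc5a7, Slc18a3, Ache, Mnx1, Prph and Calca were above it on 16 arrays and Isl1 on 15. The brightest probe of Chat, also in that list, was above it on 0 arrays. Those of the Schwann cell gene Pmp2 and the muscle gene Tnnt3 were above it on 5 and 8. At 40 days, 2 of 13 microglia markers were called higher between the genotypes, against 2.44% of all probes. There 1 of 7 motor neuron markers was called lower, against 2.03%. At 80 days 1 of 10 neuron markers was called lower, against 3.12%. At either age 0 were called in the lists of Schwann cells, endothelium, meninges, erythrocytes and skeletal muscle. Those of Schwann cells, meninges and muscle had wide ranges within groups, such as -1.28 to 1.74 for Schwann cell markers in wild-type cord of 40 days. Microglia markers stood apart at 80 days on wild-type replicate 3 (0.69) and SOD1G93A replicate 4 (1.06), against -0.32 to 0.10 on the other arrays of that age. With age, 2 of 13 microglia markers were higher in both genotypes. Endothelial markers called lower were 3 of 7 in wild-type and 2 of 7 in SOD1G93A cord. In SOD1G93A cord 2 of 6 meningeal and 2 of 7 motor neuron markers were higher. Over all probes, 5.44% were called higher and 6.5% lower with age in wild-type cord, and 10.8% and 9.26% in SOD1G93A cord. These counts from short lists were not tested against those shares. Per array, 46.1% to 55.3% of probes were well above background. Each slide held 1 array of each group, always at the same place for a group, so a group and its place on the slide cannot be told apart.

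The genes whose pattern over the 16 arrays was most like that of a member were taken among 14865 genes, by Pearson's r between the brightest probes. For Vapb these were Setd5 (r = 0.95) and Gpr180 (r = 0.91), for Atxn2 Lmbrd1 and Dlst (r = 0.91 each), and for Sqstm1 Mms19 and a probe listed only as NAP046391-1 (r = 0.90 each). For Matr3 they were Rdm1 (r = 0.88) and Sumf1 (r = 0.86), for Optn Arih2 (r = 0.86) and Fads6 (r = 0.85), for Vcp Zfp84 (r = 0.82) and Galns (r = 0.81), and for Tardbp Cnep1r1 (r = 0.78) and LOC624187 (r = 0.76). Among the members themselves the highest was 0.75, between Vapb and Atxn2, and the lowest -0.71, between Atxn2 and Sqstm1, with -0.67 between Vapb and Sqstm1. These describe 16 arrays that share slides, ages and a reference, and the highest of many such values are large whatever the genes.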

How the data were processed

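The authors scanned the arrays and extracted the spots with Agilent Feature Extraction 9.5.3.1, per the file headers and the submitters' processing notes. The deposited spot and local background signals are median intensity values on a linear scale, not normalized, and Feature Extraction marks of 0 or 1 for each spot are deposited beside them. Values in the deposited series matrix are on the log2 scale after normalization by the authors and follow the Cy3 channel with a separate median at each age (6.40 at 40 days, 6.10 at 80 days). They were used as an alternative for the genotype comparisons.

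From the median signals, the log2 ratio of Cy3 over Cy5 was obtained in R 4.3.3 (limma 3.58.1, and the package data.table, version 1.17.8). A local background over 20 units above its own spot was set to the median background of the array, which touched 3 arrays, followed by normexp (offset 50), a loess fit on each array and limma's Aquantile step across arrays. Control spots and outlier spots (107 to 301 per array) were dropped before averaging the spots of a probe. Probes keep the gene name of the files, which chose the members. For the lists, 22951 probes were named through their RefSeq accession, with a symbol other than that of the files for 5141. Where several probes measure a gene, the brightest tested at both ages was taken. Testing required a Cy3 signal well above background on 3 or more of the 4 arrays in either group, and 2 or more measured arrays per group. The number of arrays limits the precision.

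Groups were taken from the genotype and age in the labels. Each comparison was fitted with lmFit and eBayes on its 8 arrays, or on 16 for the interaction, over every probe tested, with Benjamini-Hochberg adjustment over all of them. The exact permutation test reassigned arrays between the 2 groups (smallest p 0.0286), or genotypes within each age for the interaction (4900 ways, smallest p 0.000408). For a marker list, each array was given the median, over the genes listed, of their distance from the gene's mean over the 16 arrays. The rule for names covered the probes of the 7 genes, up to 4 genes of each list and comparison (the largest differences among genes called without overlap of the groups) and the 2 genes most like each member. Further genes of the lists were named after their values were seen. The members and the lists were chosen with earlier results of these data known. Replicate numbers coincide with slides, and 24 pairs of arrays with the same number correlated at -0.14 to 0.23 in their deviations from the group means (median 0.0087), so the main model has no block. Tests were tried on simulated data first. Alternatives were other background corrections and normalizations, the Cy3 channel, the series matrix, other filters, array weights, the spread of all 16 arrays, the replicate block and the omission of single arrays. A few items are not reported here. The marker genes were checked, and 0 columns of other samples were present. Plots used Python 3.11.15 and matplotlib 3.10.9.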

Additional observations from a re-analysis of the deposited data

Results flagged for a closer look

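The genotype difference of the first Vapb probe (A_51_P323443) changed with age by -0.57 on the log2 scale, higher in SOD1G93A cord at 40 days and lower at 80 days. The interaction of genotype and age passed limma's unadjusted threshold, while the adjusted p did not (0.548).

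Within groups of 4 arrays, 1 array stood apart from the other 3 by Dixon's test in 4 of 64 groups of member probes, where chance flags about 1 in 20. Replicate 4 of SOD1G93A cord at 40 days was the highest for Matr3 A_52_P336825, at -1.25 against -1.35 for the nearest array. Replicate 4 of SOD1G93A cord at 80 days was the lowest for the third Vapb probe, A_51_P458873, at 2.22 against 2.36. For Atxn2, replicate 4 of wild-type cord at 40 days was the lowest with A_52_P644692 (-0.27 against -0.048) and replicate 1 of the same group the highest with A_52_P90101 (0.19 against -0.013), 2 probes near or below background.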

How the results depend on the processing

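Over 1436 values of single member probes under the alternatives, 1338 kept their direction and side of the threshold or moved by less than the spread between replicates, 44 lost a call, 35 gained one, 19 moved further and 0 called values turned sign, while 108 values that were not called did. The count of member probes called at 40 days was 1, and became 0 without the reset of bright backgrounds, in the Cy3 channel alone, in the series matrix, with the spread of all 16 arrays and with the replicate block, and 2 with array weights. At 80 days it was 2 and became 1 without normalization within arrays, and 3 in the series matrix and with array weights. In the interaction it was 1, and became 3 without background subtraction, 4 without normalization within arrays, and 2 without a filter on dim probes, with array weights or with the replicate block. In wild-type cord it was 2 with age, 0 in the Cy3 channel alone, 1 with array weights and 3 without normalization within arrays. In SOD1G93A cord it was 5, and became 3 in the Cy3 channel alone or with the spread of all 16 arrays, 4 without the reset or with the replicate block, and 6 without normalization within arrays. With each array left out in turn it ran from 0 to 1 at 40 days, 1 to 3 at 80 days, 1 to 3 in the interaction, 1 to 4 with age in wild-type and 3 to 7 in SOD1G93A cord. Over all probes, 953 calls at 40 days became 246 without the reset, 550 in the Cy3 channel alone, 538 in the series matrix, 1881 without the filter and 1885 without wild-type replicate 4. The 1481 calls at 80 days became 2412 without the filter, 2389 with array weights and 971 without SOD1G93A replicate 3. The 1466 calls in the interaction became 797 without the reset and 2459 without the filter, and the 4306 with age in SOD1G93A cord became 2529 without the reset. Same-numbered arrays did not correlate above 0.1 in every pair, the condition for taking the numbers as pairs, although the 4 pairs of SOD1G93A arrays of 40 and 80 days were all positive (0.086 to 0.23). With the replicate block the fall of the first Vapb probe between those ages had an adjusted p of 0.0185 from limma. The replicate block, which is also the slide, changed the calls of single member probes only for the first Vapb probe at 40 days (0.23, lost), Atxn2 A_52_P262275 in the interaction (0.24, gained) and Matr3 A_52_P336825 with age in SOD1G93A cord (0.12, lost). The cause of these shifts was not tested. The series matrix has a separate scale at each age and gave no value for comparisons of ages. Probes near background, such as Atxn2 A_52_P90101 and A_52_P644692, have ratios that the offset pulls together, so small changes in them are understated.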
